A study of Mus musculus with 7 samples.

Results

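Genes for 7 transcription factors of podocytes and of the wider glomerulus (Wt1, Tcf21, Lmx1b, Foxc1, Foxc2, Dach1 and Foxd1) were followed in whole mouse kidney. They were found by gene symbol among the 18866 rows of the authors' normalised table and joined to 48709 Ensembl genes in the raw counts. The 7 symbols were chosen by name with the DKO and WT levels of these same libraries already known, so their differences between the groups are a description with no test. RNA came from kidneys of male mice in 2 groups. The Hs3st3a1;3b1 double knockout (DKO) group had 4 libraries, replicates 1 to 4, labelled as double knockout for Hs3st3a1 and Hs3st3b1, which encode 3-O-sulfotransferases of heparan sulfate. The wild-type (WT) group had 3 libraries, replicates 1, 2 and 4. The labels give no age, strain or account of how the alleles were made. Each library carries a number of its own, but nothing says that each came from a separate animal, so p-values measure the spread between these samples, which may be technical. By its title, the study was about kidney and glomerular form after loss of both enzymes.

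Podocytes are the epithelial cells that wrap glomerular capillaries and hold the slit diaphragm, the last layer of the filter. WT1 is a zinc finger factor that podocytes need throughout life, and its loss lowers many genes of the filter. TCF21 is a basic helix-loop-helix factor of podocytes and of interstitial stromal cells. LMX1B is a LIM homeodomain factor that is mutated in nail-patella syndrome in humans. FOXC1, FOXC2 and FOXD1 are forkhead factors, and DACH1 is a corepressor that works with sine oculis homeobox and EYA proteins. FOXD1 also marks the stromal progenitors of the developing kidney.

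Libraries held 18330833 to 24259231 counts. Hs3st3a1 received 0 to 3 reads in DKO libraries and 12 to 29 in WT libraries, and Hs3st3b1 received 33 to 108 in DKO libraries and 56 to 112 in WT libraries. Which part of Hs3st3b1 was deleted is not stated in the labels, so its count does not check them. All 10 podocyte markers listed, among them Nphs1, Podxl, Synpo and Ptpro, were detected. Their summed level was 134 to 174 CPM in DKO libraries (134, 169, 151 and 174 in replicates 1 to 4) and 125.5 to 131.5 CPM in WT libraries, without overlap. The part of this difference in the levels below was not tested. CPM are counts scaled to the library size after TMM normalisation. The bulk samples hold all cells of the kidney, so fewer cells of a type and less RNA per cell cannot be told apart.

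The 7 genes differed widely in level. Scaled by the length of the merged exons, Tcf21 averaged 19.1 ± 6.28 CPM per kb in DKO and 33.1 ± 13.5 CPM per kb in WT (SD, n = 4 and n = 3). Wt1 came next on that scale, at 1.24 ± 0.818 CPM per kb in DKO and 0.599 ± 0.0754 CPM per kb in WT. Over all 7 libraries, the mean of Tcf21 was 26.0 times that of Wt1, and their ranges did not overlap. Dach1 (0.620 ± 0.0761 CPM per kb in DKO, 0.538 ± 0.0698 in WT) and Foxc1 (0.457 ± 0.160 in DKO, 0.427 ± 0.0740 in WT) followed. The ranges of Wt1, Dach1 and Foxc1 overlapped from one gene to the next, with Wt1 above Dach1 in 6 of 7 libraries and Dach1 above Foxc1 in 6 of 7. Foxc1 lay above Lmx1b in 7 of 7 libraries without overlap. Lmx1b, Foxc2 and Foxd1, in that order of the mean, spanned 0.0571 to 0.327 CPM per kb together and overlapped with each other.

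**Figure D1:**
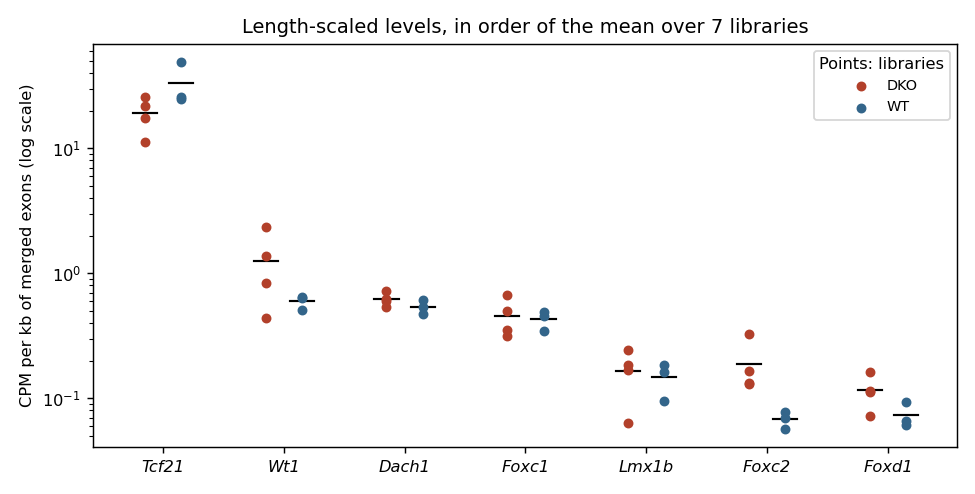
Level of each gene in CPM per kb of merged exons, on a log axis, for the 4 DKO libraries (left of each pair) and the 3 WT libraries, with short lines at the group means. Tcf21 stands above the other genes in every library, and Lmx1b, Foxc2 and Foxd1 lie lowest.

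Tcf21 also exceeded markers of the podocyte itself. Per kb of exon it lay above Podxl, the main sialoprotein of the podocyte surface, in 7 of 7 libraries, by 1.25 to 7.97 times. Wt1 per kb lay above Nphs1, which encodes nephrin of the slit diaphragm, in 6 of 7 libraries. Tcf21 is also a stromal gene, and it lay 5.02 to 17.7 times above Pdgfrb and 6.99 to 39.5 times above Pdgfra, both growth factor receptors of stromal cells, per kb in all 7 libraries.

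The promoter windows of Tcf21 and Lmx1b are shown because these are the highest and one of the lowest of the 5 genes that matched RefSeq's promoter table (GRCm38.p6, 250 bases before to 50 after the start). They were searched on both strands for CANNTG (the E-box of basic helix-loop-helix factors), TGTTTAC (forkhead), TAATTA (homeodomain), CCAAT and GGGCGG (GC box), and capitals mark matches. The Tcf21 window is chr10:22820094-22820393 on the minus strand and the Lmx1b window is chr2:33641049-33641348 on the minus strand.
Tcf21: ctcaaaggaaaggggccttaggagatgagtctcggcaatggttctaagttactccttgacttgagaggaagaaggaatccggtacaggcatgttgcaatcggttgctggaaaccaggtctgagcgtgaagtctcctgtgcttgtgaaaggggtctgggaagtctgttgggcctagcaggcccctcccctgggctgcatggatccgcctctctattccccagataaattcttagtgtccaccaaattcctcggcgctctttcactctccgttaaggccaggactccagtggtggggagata
Lmx1b: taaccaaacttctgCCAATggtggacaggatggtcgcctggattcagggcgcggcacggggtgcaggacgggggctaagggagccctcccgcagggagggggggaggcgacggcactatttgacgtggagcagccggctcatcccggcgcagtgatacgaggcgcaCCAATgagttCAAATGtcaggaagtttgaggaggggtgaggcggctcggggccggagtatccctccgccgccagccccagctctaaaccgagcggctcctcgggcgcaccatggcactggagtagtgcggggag
The Tcf21 window held none of these letters and had 53.3% G and C. The Lmx1b window held 2 CCAAT matches and 1 E-box and had 65.7% G and C, against a median of 52.7% over 32851 windows of the same length. No match overlapped another in these windows. Among all 5 matched windows, 3 held CCAAT, 2 an E-box, 2 a GC box and 0 a forkhead or homeodomain match. Of all windows, 37.4% held CCAAT, 72.3% an E-box, 35.7% a GC box, 3.65% a forkhead match and 5.29% a homeodomain match.

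Across the transcriptome, edgeR's quasi-likelihood test of DKO against WT called 0 of 15394 genes at a Benjamini-Hochberg adjusted p under 0.05 (0%). It called 0 of the 6 transcription factor genes that passed the low-count filter. At an unadjusted p under 0.05, 1 of the 6 and 21.1% of all genes passed. DESeq2 called 5.71% of the genes it gave an adjusted p and 0 of the 3 transcription factor genes that had one, and limma-voom called 0 genes. Foxc2 did not pass the filter, which asks for 0.517 CPM in at least 3 libraries. Foxd1 reached that level in DKO replicates 1 to 3 and in no WT library, so it entered the test through the group in which it was higher.

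Tcf21 lies on chromosome 10 at positions 22817281 to 22820174 on the minus strand (GRCm38, ENSMUSG00000045680), with 2 exons. It received 596, 1154, 806 and 1265 reads in DKO replicates 1 to 4, which were 26.2, 60.5, 41.3 and 51.6 CPM. The WT libraries received 1175, 1098 and 2424 reads, or 60.9, 58.0 and 115 CPM in replicates 1, 2 and 4. DKO replicate 1 was the lowest library and WT replicate 4 the highest, and DKO replicate 2 lay between WT replicates 1 and 2, so the groups overlapped. The log2 fold change of DKO over WT was -0.79 (SE 0.31). Without WT replicate 4 it was -0.41, with WT at 59.5 ± 2.02 CPM (SD, n = 2). The largest and smallest DKO values differed by 2.31 times and those of WT by 1.97 times. The spread of Tcf21 between libraries of a group, as edgeR's biological coefficient of variation, was 0.297, against a median of 0.185 over 1936 genes within 1.5 times its mean level. An annotated antisense gene, Gm10824, spans the whole of Tcf21 on the other strand without sharing exon bases. It was not analysed here, and since the libraries carry no strand, reads from it inside Tcf21 exons cannot be told apart.

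Wt1 (ENSMUSG00000016458) lies on chromosome 2 at positions 105126529 to 105173616 on the plus strand, with 10 merged exons. It received 118, 161, 282 and 67 reads in DKO replicates 1 to 4, which were 5.19, 8.45, 14.4 and 2.73 CPM. The WT libraries received 76, 60 and 85 reads, or 3.94, 3.17 and 4.02 CPM. The WT libraries lay close together, within 1.27 times, whereas the DKO libraries spanned 5.29 times and included both the highest and the lowest of all 7. The means were 7.70 ± 5.06 CPM in DKO (SD, n = 4) and 3.71 ± 0.467 CPM in WT (SD, n = 3). The log2 fold change was 1.04 (SE 0.48), and it was 0.56 without DKO replicate 3 and 1.33 without DKO replicate 4. The biological coefficient of variation of Wt1 was 0.420, higher than in 97.3% of 2257 genes within 1.5 times its level, whose median was 0.220.

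Nphs1 spanned less than Wt1 among the DKO libraries, 1.61 times. Nphs1 was at 4.35, 6.51, 4.04 and 4.53 CPM in DKO replicates 1 to 4 and at 3.53, 2.22 and 3.36 CPM in WT. It was lowest of the DKO libraries in replicate 3, where Wt1 was highest. Podocyte markers did not move alike there, since Podxl was highest of all libraries in DKO replicate 3, at 57.1 CPM. The median log2 difference of the 10 podocyte markers from their WT means was -0.02, 0.38, 0.27 and 0.49 in DKO replicates 1 to 4. The ratio of Wt1 to Nphs1 within a library was 0.604 to 3.57 in DKO, highest in replicate 3 and lowest in replicate 4, and 1.12 to 1.43 in WT, inside the DKO range. Reads of Wt1os, the antisense gene that starts 19 bases from Wt1, numbered 24, 22, 9 and 6 in DKO and 8, 8 and 14 in WT. Wt1os was highest in DKO replicates 1 and 2, whereas Wt1 was highest in DKO replicate 3.

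Other cell types were read in the same libraries. In DKO replicate 3 the summed immune markers were lowest, at 13.5 CPM against 30.7 to 38.8 CPM in the other DKO libraries and 29.0 to 52.9 CPM in WT. Mesothelial markers, listed because mesothelium also expresses Wt1, summed to 14.1 to 18.4 CPM in DKO and 13.7 to 19.3 CPM in WT, with all 5 detected and 2 (Lrrn4 and Bnc1) below 1 CPM on average. In DKO replicate 3 they stood at 14.6 CPM. Adrenal cortex markers summed to 2.08 to 4.09 CPM in DKO and 1.43 to 3.31 CPM in WT, nearly all of it Star, and Cyp21a1 had 0 reads in every library. The part of immune cells in the Wt1 level was not tested. Stromal markers, listed because stroma expresses Tcf21, summed to 442 to 973 CPM in DKO and 332 to 925 CPM in WT for fibroblasts, with all 8 detected. Mesangial markers summed to 150.9 to 184 CPM in DKO and 127.5 to 151.3 CPM in WT, smooth muscle and renin cell markers to 243 to 340 CPM in DKO and 288 to 321 CPM in WT. The mesangial sum was carried by its most abundant genes, and the median log2 fold change of the 7 mesangial markers was 0.01. In DKO replicate 1, where Tcf21 was lowest, Cfd alone made up 771 of the 973 CPM of the fibroblast sum. Cfd was the most abundant of the 8 in every library, at 306, 259 and 252 CPM in DKO replicates 2 to 4 and at 581, 114 and 420 CPM in WT. The fibroblast sum is thus weighted to that 1 gene and is not a level of stroma as a whole. The median log2 difference of the 8 fibroblast markers from their WT means was -0.41, 0.63, -0.44 and 0.08 in DKO replicates 1 to 4 and 0.39, -0.43 and 0.08 in WT, and their part in the Tcf21 level was not tested. The sums of the parietal, endothelial, fat, urothelial, proximal and distal nephron markers overlapped between the groups.

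**Figure D2:**
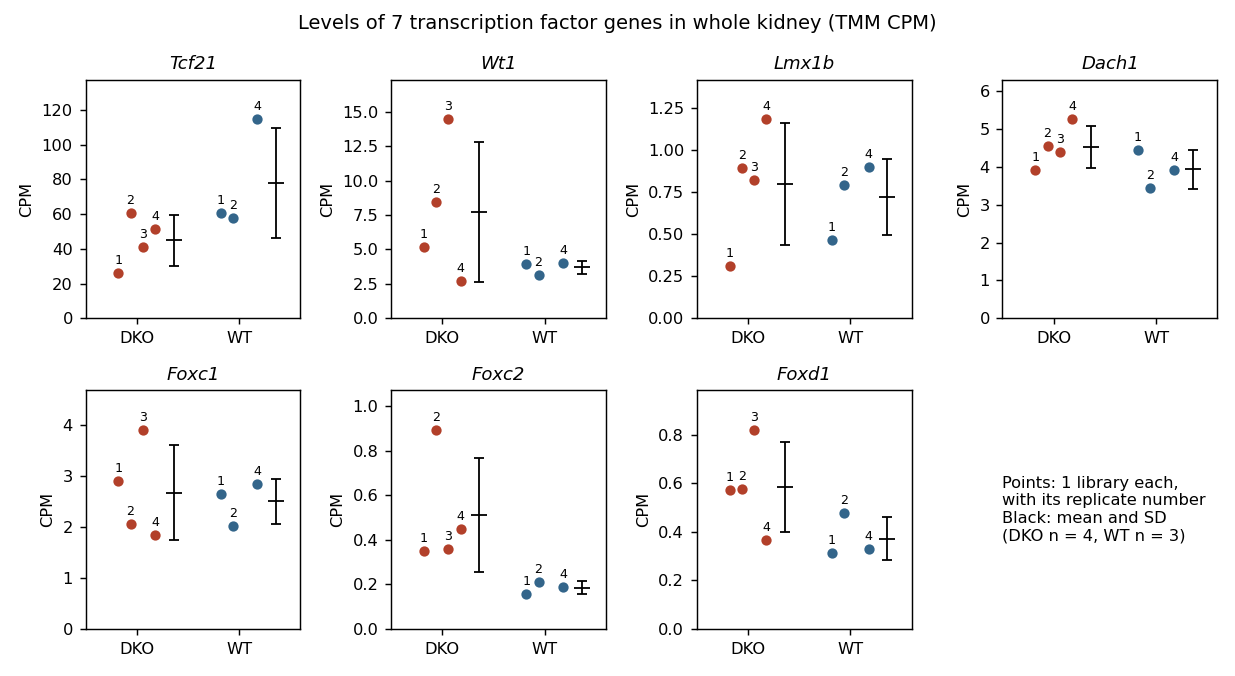
CPM of each gene in every library, with DKO left of WT, replicate numbers beside the points and the mean and SD in black (n = 4 and n = 3). Wt1 spans 2.73 to 14.4 CPM in DKO against 3.17 to 4.02 CPM in WT, and Foxc2 is the only gene of the 7 whose groups do not overlap.

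Lmx1b was scarce and varied more within DKO than within WT. Its gene (ENSMUSG00000038765) lies on chromosome 2 at positions 33560965 to 33640511 on the minus strand. It received 7, 17, 16 and 29 reads in DKO replicates 1 to 4 (0.308, 0.892, 0.819 and 1.18 CPM) and 9, 15 and 19 reads in WT (0.467, 0.793 and 0.898 CPM). The lowest and the highest library were both DKO. The log2 fold change was 0.15 (SE 0.48) and was -0.11 without DKO replicate 4 and -0.10 without WT replicate 1, so no direction can be given. DKO replicate 1 was the lowest of all 7 libraries for both Lmx1b and Tcf21.

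Dach1 (ENSMUSG00000055639) was the steadiest of the 7. It lies on chromosome 14 at positions 97786853 to 98169765 on the minus strand, with 12 merged exons. It was at 3.91, 4.57, 4.40 and 5.26 CPM in DKO replicates 1 to 4 and at 4.46, 3.44 and 3.92 CPM in WT, from 65 to 129 reads a library. The groups overlapped, and the log2 fold change was 0.20 (SE 0.21), or 0.04 once a trend with exon length and GC content was removed. Only 12.7% of 2065 genes within 1.5 times its level had a lower biological coefficient of variation than its 0.200.

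The forkhead genes are intronless, and their counts were low. Foxc1 (ENSMUSG00000050295) lies on chromosome 13 at positions 31806633 to 31812476 on the plus strand. It was at 2.90, 2.05, 3.89 and 1.83 CPM in DKO replicates 1 to 4 and at 2.64, 2.01 and 2.84 CPM in WT, so WT values lay inside the DKO range. Its log2 fold change was 0.09 (SE 0.32). It was -0.08 once the length and GC trend was removed, -0.13 without DKO replicate 3 and -0.05 without WT replicate 2.

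Foxc2 was the only gene of the 7 whose groups did not overlap. It lies on chromosome 8 at positions 121116171 to 121118895 on the plus strand (ENSMUSG00000046714). It received 8, 17, 7 and 11 reads in DKO replicates 1 to 4 and 3, 4 and 4 reads in WT, which were 0.352, 0.892, 0.358 and 0.448 CPM in DKO and 0.156, 0.212 and 0.189 CPM in WT. Every DKO library lay above every WT library, as was the case for 7.59% of the genes in the authors' filtered table, while 8.05% had every DKO library below every WT library and none of the 7 genes did. Among genes with 40 to 70 reads in all, a range that holds the 54 reads of Foxc2, the share was 4.15% of 1206. Pooled over libraries, 43 DKO and 11 WT reads gave a ratio of 2.70 with an exact 95% binomial interval of 1.37 to 5.81, which covers counting error only and leaves out the spread between libraries. A fit with no low-count filter gave a log2 fold change of 1.43 (SE 0.67), and 1.05 without DKO replicate 2. The number of the 7 genes without overlap was 3 without DKO replicate 4 (Wt1, Foxc2 and Foxd1), 3 without WT replicate 2 (Tcf21, Foxc2 and Foxd1) and 2 without DKO replicate 2 (Tcf21 and Foxc2). Over all genes of the authors' filtered table, groups did not overlap in either direction for 15.6% with all libraries, 22% without DKO replicate 4, 30% without WT replicate 2 and 18.1% without DKO replicate 2. The number was 1, Foxc2, without DKO replicate 1, DKO replicate 3, WT replicate 1 or WT replicate 4, where the shares over all genes were 28.3%, 18.2%, 26.5% and 20.4%.

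Foxd1 (ENSMUSG00000078302) lies on chromosome 13 at positions 98354242 to 98359305 on the plus strand. It received 13, 11, 16 and 9 reads in DKO replicates 1 to 4 and 6, 9 and 7 reads in WT (0.572, 0.577, 0.819 and 0.367 CPM in DKO, 0.311, 0.476 and 0.331 CPM in WT). DKO replicate 4 lay below WT replicate 2, so the groups overlapped. The log2 fold change was 0.63 (SE 0.46), and the pooled ratio was 1.54 with an interval of 0.914 to 2.67 for counting error.

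The libraries did not order the genes alike. DKO replicate 3 was highest of all 7 libraries for Wt1, Foxc1 and Foxd1, DKO replicate 2 for Foxc2, DKO replicate 4 for Lmx1b and Dach1, and WT replicate 4 for Tcf21.

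**Figure D3:**
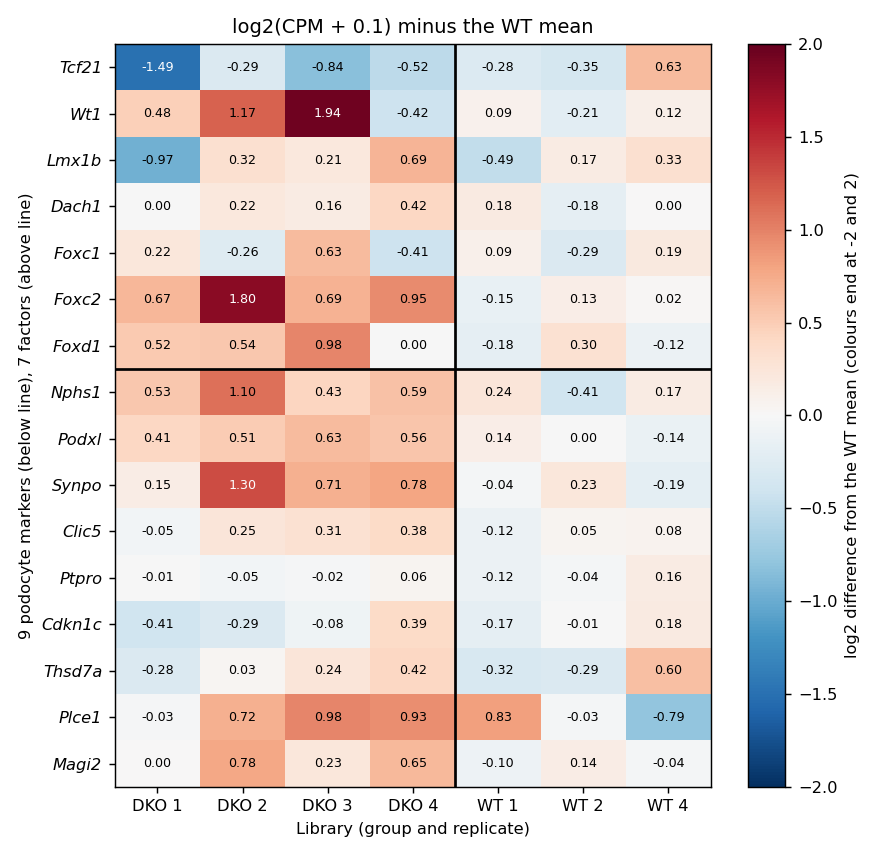
Difference of log2(CPM + 0.1) from the WT mean for the 7 genes (above the line) and 9 podocyte markers (below it) in each library, DKO left of WT. Foxc2 is positive in all 4 DKO libraries, Tcf21 negative in all 4 and in WT replicates 1 and 2, and Wt1 ranges over the DKO libraries between 1.94 and -0.42.

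Genes with the most similar profile over the 7 libraries were taken as the 3 with the smallest root mean square difference in centred log2 CPM among 13727 genes at a mean of 1 CPM or more. The measure describes the profile alone, and all libraries, depths and groups are shared between the genes. For Wt1 they were Tsc22d3 (0.26 on the log2 scale, against a median of 0.81 over all genes compared), Pak6 (0.32) and Msh5 (0.35). Tsc22d3 was at 89.4, 95.8, 191 and 43.7 CPM in DKO replicates 1 to 4 and at 49.7, 63.1 and 51.9 CPM in WT. It had the same order of DKO libraries as Wt1, a likeness for which it was chosen. Among WT libraries, replicate 2 was the highest for Tsc22d3 and the lowest for Wt1. For Tcf21 they were the interferon-inducible Ifi204 (0.12), Phf11d (0.17) and Srpx2 (0.20), against a median of 0.66. Ifi204 averaged 1.37 ± 0.524 CPM in DKO and 2.67 ± 1.11 CPM in WT (SD, n = 4 and n = 3). For Lmx1b they were Setbp1, Otop1 and Cbx5 (0.12 to 0.17), for Foxc1 Rap1gap, Trmu and H2-DMa (0.10 to 0.12), for Dach1 Nrp1, Rb1cc1 and Sec24d (0.05 to 0.07) and for Foxd1 Ndc1, Car14 and Gk (0.07 each). None of these genes is on a pathway or marker list used here.

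Genes that these factors are reported to act on were counted in the same fit, where 0 of the 70 tested genes on 7 lists were called by edgeR. The lists share members. The median log2 fold change over all 15394 genes was 0.04. Of these genes, 53.2% had a positive log2 fold change and 17.4% had groups that did not overlap. The medians and signs given for the lists are from the same fit, in which the trend with exon length and GC content was not removed. Of 12 reported WT1 targets, 0 were called, 11 had a positive log2 fold change (median 0.49) and 2 of 12, Nphs1 and Podxl, had groups that did not overlap. The most abundant was the type IV collagen chain Col4a3, at 20.4, 6180, 5195 and 9458 CPM in DKO and at 20.5, 2699 and 1490 CPM in WT, followed by Col4a4 and Podxl. Replicate 1 of both groups lay far below the other libraries for Col4a3, and its log2 fold change was 1.89 (SE 2.01). Col4a4 was at 63.2 to 85.7 CPM over all libraries. Podxl was at 53.3 ± 3.42 CPM in DKO and 37.0 ± 3.49 CPM in WT (log2 fold change 0.53, SE 0.14). Its adjusted p was 0.163 by edgeR and 0.0330 by DESeq2, in a range of 0.0330 to 0.494 over the settings. Scel, the sciellin gene of this list, named after its values were seen, was at 7.65, 11.7, 22.1 and 10.5 CPM in DKO and at 7.67, 6.13 and 4.82 CPM in WT. It was highest in DKO replicate 3, as Wt1 was, and had a log2 fold change of 1.06 (SE 0.34). Its adjusted p was 0.165 by edgeR and 0.0473 by DESeq2, in a range of 0.0473 to 0.497.

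The heparan sulfate 6-O-endosulfatases Sulf1 and Sulf2, also reported WT1 targets and named after their values were seen, take 6-O-sulfate off heparan sulfate. Sulf2 was at 13.1 ± 0.779 CPM in DKO and 9.93 ± 2.96 CPM in WT, and Sulf1 at 2.34 ± 0.302 CPM in DKO and 1.87 ± 0.474 CPM in WT (SD, n = 4 and n = 3). Their edgeR adjusted p values were 0.280 and 0.528, and the groups of both overlapped. Of the 4 reported LMX1B targets 0 were called, with a median log2 fold change of 0.18. Col4a4 had 0.04 (SE 0.15).

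Of 19 tested genes of podocyte structure and filtration, 0 were called by edgeR, 13 had a positive and 6 a negative log2 fold change (median 0.26), and 4 had groups that did not overlap. Npnt, the integrin ligand nephronectin, was at 87.3 ± 14.1 CPM in DKO and 97.4 ± 3.98 CPM in WT, and Dpp4, a brush border and podocyte peptidase, at 64.0 ± 4.14 CPM in DKO and 44.1 ± 10.2 CPM in WT (edgeR adjusted p 0.581 and 0.165). Tjp1, which encodes the junction protein ZO-1 and was named after its values were seen, had a log2 fold change of 0.88 (edgeR adjusted p 0.163). DESeq2 called it (adjusted p 0.0232) and so did edgeR with no low-count filter (0.0481), in a range of 0.0232 to 0.494 over the settings.

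Other regulators of podocyte transcription had a positive log2 fold change in 14 of 19 genes (median 0.30), with 0 called by edgeR. Zhx3, a zinc finger and homeobox factor, was at 384 ± 107 CPM in DKO and 205 ± 38.0 CPM in WT (adjusted p 0.163 by edgeR and 0.0232 by DESeq2, in a range of 0.0232 to 0.494 over the settings). Pax8, a factor of the nephron epithelium, was at 139 ± 38.6 CPM in DKO and 87.3 ± 16.6 CPM in WT, and Klf15, a glucocorticoid-responsive factor, at 77.2 ± 26.2 CPM in DKO and 64.3 ± 15.2 CPM in WT (adjusted p 0.165 and 0.595).

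Partners of the 7 factors were also counted. Of the 7 E proteins and ID inhibitors that bind or oppose TCF21, 0 were called (median log2 fold change 0.09). Id3, an inhibitor of E proteins, was at 92.6 ± 14.7 CPM in DKO and 119 ± 13.2 CPM in WT without overlap (log2 fold change -0.36, SE 0.17, edgeR adjusted p 0.241). Id2 was at 96.5 ± 21.2 CPM in DKO and 121 ± 4.87 CPM in WT, and Tcf4, an E protein, at 27.1 ± 2.65 CPM in DKO and 23.4 ± 3.15 CPM in WT. Of the 9 partners and relatives of DACH1 (sine oculis homeobox and EYA genes and Dach2) 4 were tested and 0 called, and Six2, a marker of nephron progenitors, had 0 reads in all libraries. Eya3, the most abundant, was at 6.40 ± 0.822 CPM in DKO and 6.02 ± 0.269 CPM in WT. Six5 was at 1.83 ± 0.231 CPM in DKO and 2.09 ± 0.434 CPM in WT, and Six4 at 0.977 ± 0.332 CPM in DKO and 0.807 ± 0.453 CPM in WT, both with overlap. Of 22 other FOX genes 16 were tested, 0 were called by edgeR, 13 had a positive log2 fold change (median 0.29), and in 6 every DKO library lay above every WT library, as in 8.34% of all genes tested. Foxo3, a target of insulin signalling, was at 283 ± 67.8 CPM in DKO and 126 ± 67.7 CPM in WT (adjusted p 0.166 by edgeR and 0.0322 by DESeq2, in a range of 0.0322 to 0.494). Foxn2 was at 29.7 ± 5.75 CPM in DKO and 46.8 ± 20.1 CPM in WT, with overlap (log2 fold change -0.65, SE 0.26, edgeR adjusted p 0.204). Foxi1, the intercalated cell factor, was at 31.4 ± 12.1 CPM in DKO and 35.1 ± 5.09 CPM in WT.

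**Figure D4:**
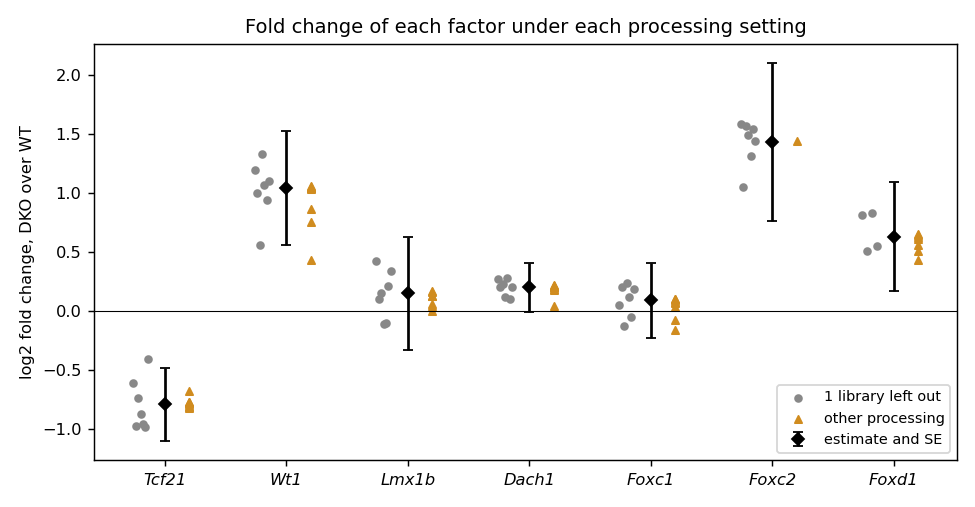
Log2 fold change of DKO over WT for each gene, with its SE (black), with 1 library left out in turn (grey, left) and under other scalings, filters, tools, the length and GC trend removed or the replicate block (triangles, right). Wt1, Foxc2, Dach1 and Foxd1 stay above 0 and Tcf21 below 0 in the settings in which each could be fitted, while Foxc1 and Lmx1b cross 0.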

How the data were processed

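Libraries were made with an unstranded Nextera XT kit and sequenced on an Illumina HiSeq instrument, per the labels' protocols. Reads were aligned with STAR 2.5.2a, per the submitters' processing notes, which list GRCm38, mm10 and GRCh38 without saying the role of each. The counting tool and its annotation release are not stated there. The authors deposited whole-number counts per gene, raw and filtered, and a TMM-scaled CPM table, used as signal to find genes by symbol. CPM computed here differed from the deposited values by at most 0.606% for these genes. Rows that are no Ensembl gene held at most 0.000697% of counts and were left out.

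DKO was tested against WT with edgeR 4.0.16 (quasi-likelihood, TMM, filterByExpr with a minimum count of 10, Benjamini-Hochberg adjustment) in R 4.3.3. DESeq2 1.42.0, limma 3.58.1 (voom), other scalings and filters, a length and GC trend, a replicate block and leaving out each library were alternatives. The fit was tested on simulated data. Exon lengths and positions came from GENCODE M21 (GRCm38). The 7 genes and all lists were chosen with earlier results of these data known. Named genes included the 7, some of the annotated neighbours within 5 kb, and up to 3 genes of highest CPM per list. The 3 most similar genes were named for each gene that passed the low-count filter, which leaves out Foxc2. Some other list genes were named too, among them those marked as named after their values were seen.

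A few list genes are not reported here by name.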

Additional observations from a re-analysis of the deposited data

Results flagged for a closer look

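A neomycin cassette row in the count table, used in no comparison above, received 73, 75, 81 and 125 reads in DKO replicates 1 to 4 and 0 reads in each WT library. It was singled out because it is a signal outside the measured genes that is absent from the WT counts. None of the 7 transcription factor genes had a library standing apart from the other DKO libraries by Dixon's criterion in the 7 groups of 4 tested, and groups of 3 were not tested.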

How the results depend on the processing

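Of the 7 genes, 0 were called in the settings in which each could be tested. Foxc2 was fitted only by DESeq2 and with no low-count filter, only 3 of the 7 had an adjusted p in DESeq2, and Lmx1b and Foxd1 fell out at a mean CPM of at least 1. Across the transcriptome edgeR called 0 genes, DESeq2 655 and edgeR with no low-count filter 66, and 0 to 7 with 1 library left out (7 without DKO replicate 1). Of the 70 tested pathway list genes, not all of which had an adjusted p in DESeq2, 5 were called by DESeq2 and 1 with no low-count filter. Over all genes, DESeq2 called 5.71% of those with an adjusted p, and edgeR with no low-count filter called 0.241%. The number of the 7 genes whose groups did not overlap was 1 to 3 with 1 library left out, where 18.1% to 30% of the genes in the authors' filtered table had such groups, against 15.6% with all libraries. The cause of these changes was not tested. Wt1 and Dach1 kept a positive and Tcf21 a negative log2 fold change in 15 of 15 alternatives. With Foxc2 refitted without each library and without the low-count filter, an alternative chosen after seeing the data, its log2 fold change was 1.05 to 1.58. Foxd1 could be fitted in 4 of the 7 leave-one-out fits.

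With the replicate number as a block, edgeR called 0 genes, with 2346 at an unadjusted p under 0.05 against 3250 without it, and the log2 fold changes of Wt1 and Foxc1 were 0.43 and -0.16. Same-numbered samples (replicates 1, 2 and 4) correlated at -0.13, 0.16 and 0.14 in their deviations. WT replicate 2 correlated best with DKO replicate 2, of the same number. WT replicate 1 correlated best with DKO replicate 2 (0.099) and WT replicate 4 with DKO replicate 1 (0.162). These mixed values cannot tell whether the numbers pair the samples. Lmx1b, Foxc2 and Foxd1 had at most 29 reads in a library, which limits what their levels can show.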
